A study of Mus musculus with 6 samples.

Results

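Macrophage genes were examined in the lining of the mouse uterus (endometrium) in a model of adenomyosis, in which this lining grows into the surrounding muscle. The set was chosen by gene symbol and comprised 10 genes: Csf1, Csf1r, Cd68, Mrc1, Fcgr1, Cd14, C1qa, C1qb, C1qc and Lyz2. All 10 were among the 44788 symbols of the count table, and all 10 were among the 16581 genes with enough reads to be tested. In the agonist group, female ICR mice (an outbred strain) had received the GnRH agonist Decapetyl at 1.5 µg per 100 g of body weight per day by intraperitoneal injection on days 3 to 9 of estrus. The group without agonist had received the solvent. Both groups, 8 mice each, had been given tamoxifen at 2.7 µmol/kg by mouth on days 2 to 5 after birth to induce adenomyosis and were assigned 75 days later. Mating followed 4 weeks later, and the endometrium was collected by scraping on day 4 of pregnancy. Each group had 3 libraries. Which mouse or mice went into each library is not stated in the labels, so the spread behind each p-value is that between libraries and may be technical.

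Macrophages depend on the cytokine CSF1, whose receptor is encoded by Csf1r, for survival and differentiation. In the mouse uterus CSF1 is made largely by the epithelium under the control of ovarian steroids, and macrophages are among the main leukocytes of the endometrium before implantation. They take up debris and microbes through receptors such as the mannose receptor (Mrc1), the high-affinity IgG receptor (Fcgr1) and the LPS co-receptor (Cd14). They also secrete complement C1q (C1qa, C1qb, C1qc) and lysozyme (Lyz2) and carry the lysosomal glycoprotein CD68. Lyz2 is also a gene of neutrophils.

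Library totals ranged from 11720958 to 14104266 counts in the agonist group and from 12053447 to 13137470 without the agonist, so that 3 counts, the limit that a count of 0 allows, corresponded to 0.213 to 0.256 CPM, counts relative to the library total and here without TMM scaling. The scraped tissue carried endometrial stroma (13 of 13 listed markers tested), epithelium (12 of 12) and smooth muscle (9 of 9). Summed smooth muscle markers ranged from 3029 to 12110 CPM with the agonist and from 7730 to 19750 CPM without it. The 18S ribosomal RNA gene took 1.94% of counts in agonist library 1 and 3.31% in no-agonist library 2, against 0.254 to 0.369% in the other 4 libraries. All other CPM are scaled by TMM factors.

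Cd68 and Cd14 were the 2 members whose agonist libraries all lay below all libraries without the agonist. The other 8 overlapped between the groups. Cd68 measured 25.6, 20.1 and 13.2 CPM in agonist libraries 1 to 3, against 81.8, 35.9 and 64.4 CPM in no-agonist libraries 1 to 3. The highest agonist library lay below the lowest library without the agonist. The mean was 19.6 ± 6.23 against 60.7 ± 23.2 CPM (SD, n = 3 each), a 3.09-fold lower level with a log2 fold change of -1.63 ± 0.36 (SE). Cd14 measured 594.7, 517 and 195 CPM in the agonist libraries, against 806, 702 and 2002 CPM without the agonist, a log2 fold change of -1.42 ± 0.54 (SE). Its groups were separate but close, with 594.7 CPM as the highest agonist value and 702 CPM as the lowest value without it. Without no-agonist library 3, at 2002 CPM, the log2 fold change of Cd14 was -0.78. In bulk tissue, fewer cells of a type and less RNA per cell cannot be told apart.

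Neither gene passed edgeR's quasi-likelihood test after Benjamini-Hochberg adjustment over all genes tested (adjusted p = 0.266 for Cd68 and 0.496 for Cd14). Of the 10 members, 0 were called higher and 0 lower, where the test called 0% of all genes in either direction. At an unadjusted p under 0.05, 2 members lay lower (Cd68 and Cd14) and 0 higher, against 5.09% of all genes tested lower and 4.17% higher. Separate groups were found for 7.61% of all genes in the lower direction and for 6.94% in the higher one. DESeq2 called 1 member, Cd68 (adjusted p = 0.00482), and its calls covered 1.48% of the genes it adjusted in the lower direction and 0.968% in the higher one. The adjusted p of Cd68 ranged from 0.00482 with DESeq2 to 0.659 without agonist library 3, and that of Cd14 from 0.136 to 0.864. The direction of both held under all alternatives tried. All 10 fitted changes were below 0, with a median log2 fold change of -0.38 against 0.02 over all genes. For 7 of the 8 other members, all but Fcgr1, the sign turned in at least 1 fit that left out a library.

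**Figure D1:**
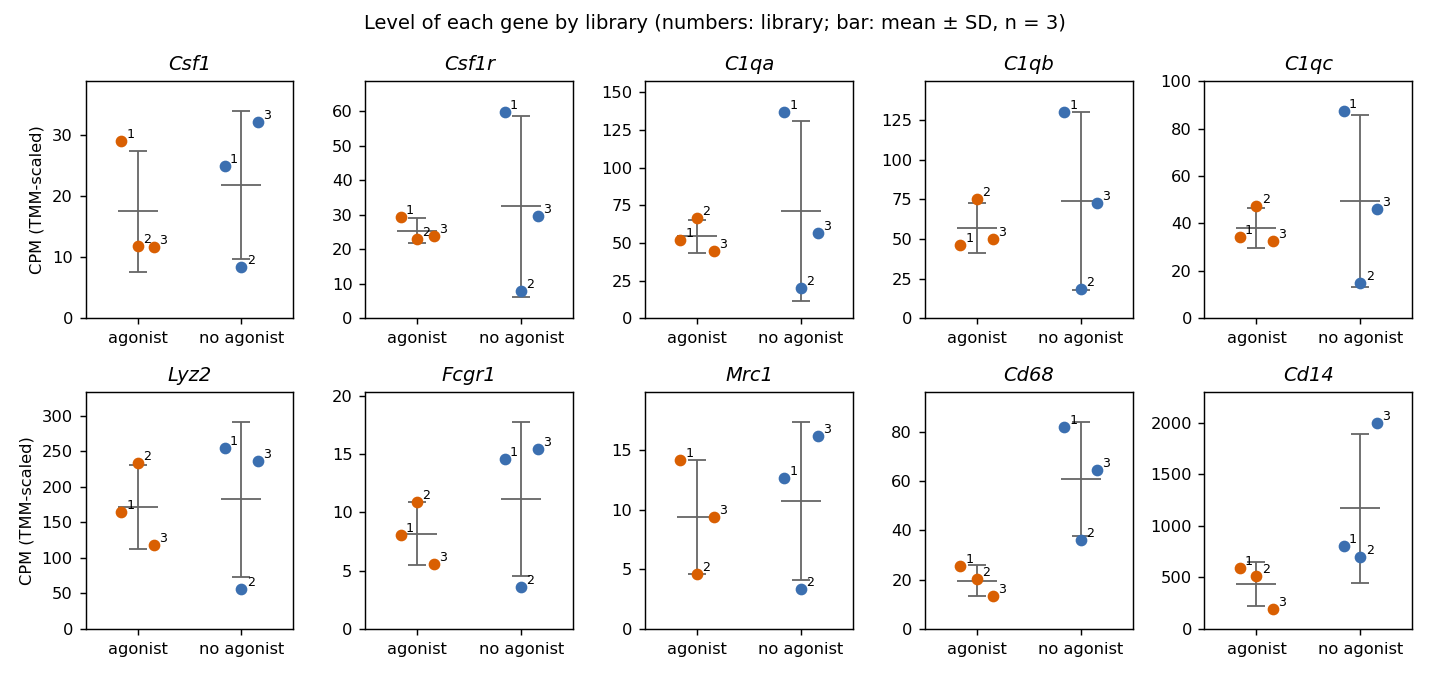
CPM (TMM-scaled) of each of the 10 genes, with agonist libraries at left and libraries without agonist at right in each panel. Points are libraries, numbered 1 to 3, and the grey bar is the mean ± SD (n = 3). Cd68 and Cd14 show no overlap between groups, and no-agonist library 2 is the lowest of the 6 libraries for the other 8 genes.

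The remaining 8 genes shared a feature within the group without the agonist. For all 8, no-agonist library 2 was the lowest of the 6 libraries, whereas 17.4% of all genes tested were lowest there. Its level was 17.5% (Csf1r) to 29.6% (Csf1) of the mean of no-agonist libraries 1 and 3. For Cd68 and Cd14 it was 49.2% and 50%, and the median over all genes was 98.0%. A value under 30%, a limit chosen after the values were seen, was found for 4.69% of all genes. This library also had the highest 18S share and the highest epithelial marker sum of the 6 (13900 CPM), and it was the lowest for 10 of 10 pan-leukocyte genes. The part of these in the low values was not tested. Levels without the agonist spanned 3.81-fold (Csf1) to 7.64-fold (Csf1r) between libraries for these 8 genes, against 1.28-fold (Csf1r) to 3.06-fold (Mrc1) in the agonist group. No-agonist libraries 1 and 3 also differed for some of them, as for Csf1r at 59.9 and 29.6 CPM.

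Csf1 encodes the ligand that sustains macrophages. It measured 29.0, 11.9 and 11.7 CPM in the agonist libraries, against 24.9, 8.44 and 32.2 CPM without the agonist. Agonist library 1 and no-agonist libraries 1 and 3 were high, the other 3 were low, and the groups overlapped (log2 fold change -0.32 ± 0.55 SE, edgeR adjusted p = 0.908). Its receptor Csf1r, the tyrosine kinase that marks the macrophage lineage, measured 29.4, 23.0 and 23.8 CPM with the agonist, against 59.9, 7.83 and 29.6 CPM without it. The agonist libraries lay close together, between the extremes of the other group (log2 fold change -0.35 ± 0.60 SE, edgeR adjusted p = 0.907). The ratio of Csf1 to Csf1r counts was 0.984, 0.516 and 0.492 in the agonist libraries and 0.416, 1.08 and 1.09 without the agonist, with no separation (exact two-sided permutation p = 0.8). Csf1r lies on chromosome 18 at 61100598 to 61132149 (GRCm38, plus strand), and its exons share 873 bases with the oppositely oriented Hmgxb3. Whether counting used strand is unknown here, and reads in the shared bases could be lost or given to either gene. Hmgxb3 measured 50.1 ± 7.41 CPM with the agonist and 54.4 ± 12.7 CPM without it (SD, n = 3 each).

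Of the other colony-stimulating factors and their receptors, 6 were tested, with 4 above 0 and 2 below. Il34, which encodes the second ligand of the CSF1 receptor, measured 3.21, 2.24 and 1.92 CPM with the agonist, against 3.17, 5.39 and 6.52 CPM without it. Its log2 fold change was -1.03 ± 0.44 (SE, edgeR adjusted p = 0.530), and agonist library 1 overlapped no-agonist library 1. The granulocyte factor Csf3 measured 59.0, 27.4 and 35.2 CPM with the agonist, against 47.6, 58.5 and 113.5 CPM without it. Csf2ra, Csf2rb and Csf2rb2, receptor chains for GM-CSF and related cytokines, had log2 fold changes of 0.08, 0.35 and 0.42. Csf2 did not have enough reads to be tested.

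Cd68 encodes a heavily glycosylated protein of the lysosome family that also holds Lamp1 and Lamp2. It lies on chromosome 11 at 69664213 to 69666153 (GRCm38, minus strand), in 6 exon blocks of 1257 bases in all. Its nearest neighbour on that strand, the translation factor gene Eif4a1, is separated from it by a gap of 782 bases. Eif4a1 measured 266 ± 44.6 CPM with the agonist and 288 ± 60.1 CPM without it, a log2 fold change of -0.12 ± 0.24 (SE). The neighbour on the other side, Mpdu1, had a log2 fold change of -0.30 ± 0.22 (SE). Of its relatives, the abundant lysosomal membrane protein Lamp1 measured 447 ± 57.6 CPM with the agonist and 568 ± 61.8 CPM without it (log2 fold change -0.35 ± 0.22 SE), and Lamp2 had a log2 fold change of -0.03 ± 0.29 (SE). None of these passed the adjusted threshold, and the groups of all 4 overlapped.

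C1qa, C1qb and C1qc encode the A, B and C chains that assemble into C1q, the recognition unit of the classical complement pathway. They lie side by side on the minus strand of chromosome 4, between 136880129 (the lower end of C1qb) and 136898803 (the upper end of C1qa). C1qa measured 51.8, 66.4 and 44.9 CPM in the agonist libraries, against 137, 20.3 and 56.3 CPM without the agonist. C1qb measured 46.0, 75.1 and 49.7 CPM with the agonist, against 130.4, 18.3 and 72.7 CPM without it. C1qc measured 34.3, 47.5 and 32.4 CPM with the agonist, against 87.3, 14.8 and 46.3 CPM without it. For all 3 chains no-agonist library 1 was the highest and no-agonist library 2 the lowest, with the agonist libraries between them. The log2 fold changes of -0.39 ± 0.58, -0.37 ± 0.59 and -0.38 ± 0.54 (SE) were smaller than their errors. Without no-agonist library 1 they were 0.50, 0.32 and 0.32, and without no-agonist library 2 they were -0.82, -0.83 and -0.80, with no call in either fit.

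The proportions of the 3 chains varied far less than their sum. C1qc made up 25.2 to 26.0% of C1q counts in the agonist libraries and 24.6 to 27.7% without the agonist. C1qa made up 35.1 to 39.2% with the agonist and 32.1 to 38.6% without it. C1qb made up 34.8 to 39.7% with the agonist and 34.3 to 41.5% without it. The sum ranged from 1645 to 2783 counts with the agonist and from 613 to 4699 counts without it. For C1qa the exact binomial intervals did not all overlap: agonist library 1 gave 36.8 to 41.6% and no-agonist library 3 gave 30.02 to 34.3%. Such intervals cover counting error alone.

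Promoter sequences of Cd68 and of 2 C1q genes are shown because their levels followed different patterns over the libraries. Each runs from 250 bases before to 50 bases after the start of the gene as RefSeq gives it (GRCm38.p6). Capitals mark GAGGAA or its complement TTCCTC, the core of the site of PU.1, the transcription factor that specifies macrophages. Cd68 is from chr11:69666121-69666420, C1qb from chr4:136886151-136886450 and C1qc from chr4:136892865-136893164, all on the minus strand and written 5′ to 3′ along the gene.
Cd68: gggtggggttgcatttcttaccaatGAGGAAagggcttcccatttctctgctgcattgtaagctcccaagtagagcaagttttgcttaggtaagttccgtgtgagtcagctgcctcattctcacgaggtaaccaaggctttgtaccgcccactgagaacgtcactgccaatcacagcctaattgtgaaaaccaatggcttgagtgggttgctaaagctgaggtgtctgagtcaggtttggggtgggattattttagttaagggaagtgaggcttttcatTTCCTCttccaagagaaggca
C1qb: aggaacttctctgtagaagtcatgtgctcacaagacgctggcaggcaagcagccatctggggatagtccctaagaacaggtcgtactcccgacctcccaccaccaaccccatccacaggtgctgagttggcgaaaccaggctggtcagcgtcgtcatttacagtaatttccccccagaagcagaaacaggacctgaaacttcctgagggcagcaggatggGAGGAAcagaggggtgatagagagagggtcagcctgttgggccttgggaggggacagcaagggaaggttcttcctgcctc
C1qc: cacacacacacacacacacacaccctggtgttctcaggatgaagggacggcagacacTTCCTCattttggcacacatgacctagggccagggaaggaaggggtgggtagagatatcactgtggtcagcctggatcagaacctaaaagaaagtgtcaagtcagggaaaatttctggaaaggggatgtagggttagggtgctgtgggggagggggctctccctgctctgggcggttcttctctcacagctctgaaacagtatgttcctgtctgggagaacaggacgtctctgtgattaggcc

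The match nearest to the start begins 30 bases upstream in C1qb, 193 bases upstream in C1qc, and 29 bases downstream in Cd68, which has another 225 bases upstream. Of all promoters in the table, 28.3% hold this motif on either strand. Searched also for TGANTCA, the site of the AP-1 factors, Cd68 had 2 matches and C1qb and C1qc had 0, where 7.81% of all promoters hold one. Promoters of 7 members were in the table. The PU.1 motif was in 5 of them and the AP-1 motif in 1. Such matches are letters in a window and not sites shown to be bound.

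The list for the classical pathway also held genes outside its core, such as Masp1, Masp2, Calr, C1qbp and Cd93. Of the whole list 15 genes other than the members were tested, with 11 above 0 and 4 below. The central component C3 measured 2732, 1112 and 1354 CPM in the agonist libraries, against 6015, 4093 and 10090 CPM without the agonist (log2 fold change -1.96 ± 0.50 SE, adjusted p = 0.324 with edgeR and 0.00155 with DESeq2). The C3 groups were separate, and those of the C1q-associated protease genes C1ra, C1rb and C1s overlapped. A further gene of this kind, C1s2 (listed as Gm5077), had separate groups toward higher levels, which 6.94% of all genes had. It measured 20.5, 13.65 and 22.5 CPM with the agonist, against 10.0, 7.57 and 12.8 CPM without it (log2 fold change 0.90 ± 0.32 SE, edgeR adjusted p = 0.443). C1s measured 164, 108 and 238 CPM with the agonist, against 107, 60.0 and 146 CPM without it, and C1ra had a log2 fold change of 0.66 ± 0.45 (SE). The C1 inhibitor Serping1 and the components C2 and C4b had log2 fold changes of 0.14, -0.05 and 0.27, each smaller than its error.

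The ratio of counts within a library does not depend on how libraries are scaled. The summed C1q chains were 5.16, 9.40 and 9.65 times the Cd68 count in the agonist libraries, against 4.34, 1.48 and 2.72 times without the agonist. All 3 agonist libraries lay above the others, by 2.99-fold on average (log2 difference 1.58, exact two-sided permutation p = 0.1, the smallest that 3 against 3 allows). Lyz2 was 6.41, 11.6 and 8.91 times Cd68 with the agonist, against 3.11, 1.58 and 3.66 times without it, again with separate groups and a 3.33-fold difference (exact permutation p = 0.1). Mrc1 to Cd68 gave 0.552, 0.230 and 0.713 with the agonist, against 0.155, 0.0920 and 0.251 without it, with agonist library 2 inside the range of the other group (exact permutation p = 0.2). Cd14 to Cd68 gave 23.2, 25.7 and 14.9 with the agonist, against 9.85, 19.5 and 31.1 without it, and the groups overlapped (exact permutation p = 0.8). Adjusted over the 5 ratios tested, the p-values of the first 2 were 0.25. The members were chosen with earlier results of these data known, so these ratios are no independent evidence of a difference.

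**Figure D2:**
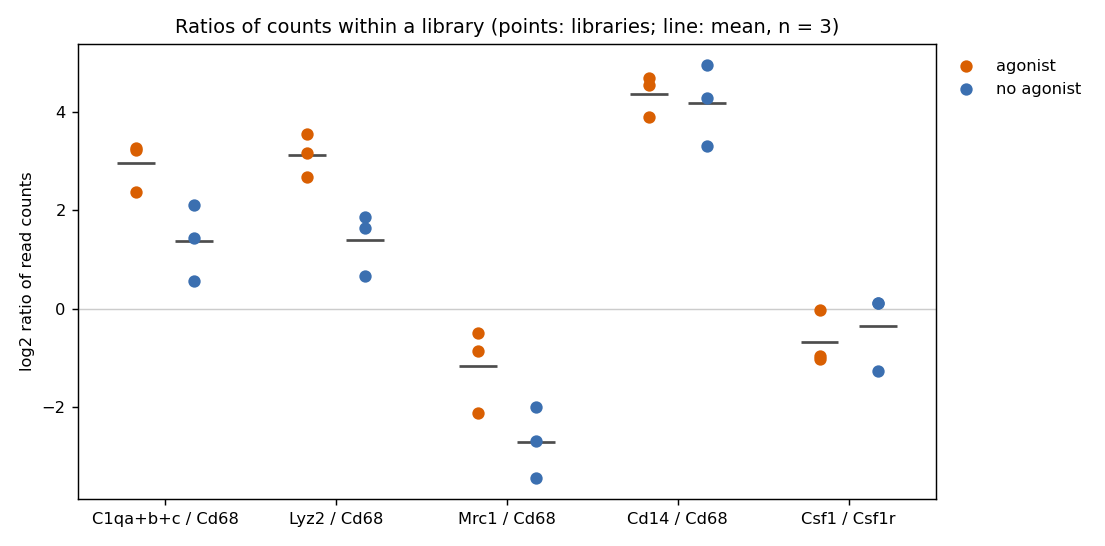
Log2 ratio of read counts of pairs of genes within each library, agonist at left and no agonist at right of each pair (points are libraries, lines are means, n = 3). The summed C1q chains and Lyz2 stand higher relative to Cd68 in all 3 agonist libraries than in any library without the agonist, and the ratios of Cd14 to Cd68 and Csf1 to Csf1r overlap.

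Lyz2 encodes the lysozyme of macrophages and neutrophils, an enzyme that cuts bacterial cell walls. It measured 164, 234 and 117 CPM in the agonist libraries, against 255, 56.8 and 236 CPM without the agonist, a log2 fold change of -0.09 ± 0.53 (SE) that turned positive with library totals alone. Its neighbour on chromosome 10, the paralog Lyz1, is close in sequence. Of the 50-base stretches of the Lyz2 transcript 15.4% also occur in Lyz1, so reads can be split between them. Lyz1 measured 4.60 ± 0.786 CPM with the agonist and 3.24 ± 2.75 CPM without it (SD, n = 3 each).

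Fcgr1 encodes the receptor that binds single IgG molecules with high affinity. It measured 8.02, 10.9 and 5.54 CPM in the agonist libraries, against 14.6, 3.57 and 15.4 CPM without the agonist (log2 fold change -0.45 ± 0.55 SE, edgeR adjusted p = 0.864). The agonist libraries lay between the extremes of the other group. Of the other Fc receptor genes 5 were tested, with 2 above 0 and 3 below and none at an unadjusted p under 0.05. Fcgr3 measured 6.98, 9.85 and 9.39 CPM with the agonist, against 16.2, 2.87 and 9.09 CPM without it. The signalling chain Fcer1g measured 20.6, 30.3 and 23.5 CPM with the agonist, against 36.5, 11.5 and 38.9 CPM without it.

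Mrc1 encodes the mannose receptor, a marker of tissue-resident and alternatively activated macrophages. It measured 14.1, 4.62 and 9.39 CPM in the agonist libraries, against 12.7, 3.31 and 16.2 CPM without the agonist. The groups overlapped (log2 fold change -0.19 ± 0.62 SE, edgeR adjusted p = 0.961). Its pattern over the libraries was closer to that of Csf1 than to C1q: the root mean square difference of centred log2 CPM was 0.34 to Csf1 and 0.74 to the C1q mean. Of its family, Mrc2, Pla2r1 and Ly75 had log2 fold changes of -0.06, 0.25 and -0.09.

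Genes listed with alternative activation were tested in 6 further cases, 2 above 0 and 4 below, and those at an unadjusted p under 0.05 were not specific to macrophages. The arginine-cleaving enzyme Arg1 measured 37.1, 11.1 and 3.69 CPM in the agonist libraries, against 135, 165 and 980 CPM without the agonist (log2 fold change -4.63 ± 1.11 SE, adjusted p = 0.304 with edgeR and 0.00795 with DESeq2). The transglutaminase Tgm2 measured 1063, 883 and 338 CPM with the agonist, against 2237, 2031 and 2306 CPM without it (adjusted p = 0.337 with edgeR and 0.0149 with DESeq2). Both had separate groups. The interleukin-4 receptor chain Il4ra had a log2 fold change of -0.98 ± 0.39 (SE) with overlapping groups. Clec10a, a lectin of alternatively activated macrophages, had a log2 fold change of 0.02 ± 0.61 (SE). The ligands Il4 and Il13 had 0 reads.

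Cd14 presents bacterial LPS to the receptor TLR4 and its partner MD-2 (Ly96). It is a single-exon gene in the annotation (chromosome 18, 36725067 to 36726798, minus strand). The list for LPS sensing also held genes of other receptors, such as Tlr2, Cd180 and Ly86. Of its 13 other tested genes 11 lay below 0 and 2 above. At an unadjusted p under 0.05, 5 lay below and 1 above, with 0 passing edgeR's adjusted threshold. Over all genes, 5.09% lay lower and 4.17% higher at that unadjusted p. The adapter Myd88 measured 63.1, 65.1 and 60.0 CPM in the agonist libraries, against 81.8, 81.4 and 90.7 CPM without the agonist. The kinase Irak4, the receptor Tlr2 and the adapters Tirap and Ticam1 also had separate groups toward lower levels, with log2 fold changes of -0.86 ± 0.25, -0.99 ± 0.35, -0.42 ± 0.16 and -0.58 ± 0.22 (SE). The LPS-binding protein Lbp, which delivers LPS to CD14, lay the other way. It measured 177, 238 and 286 CPM with the agonist, against 105, 67.4 and 120 CPM without it (log2 fold change 1.26 ± 0.29 SE, adjusted p = 0.285 with edgeR and 0.0105 with DESeq2). Tlr4 itself measured 17.8, 17.9 and 26.1 CPM with the agonist, against 13.6, 16.2 and 34.1 CPM without it. Counting Cd14, 6 of the 14 genes of this list had separate groups toward lower levels, where the share over all genes was 7.61%.

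**Figure D3:**
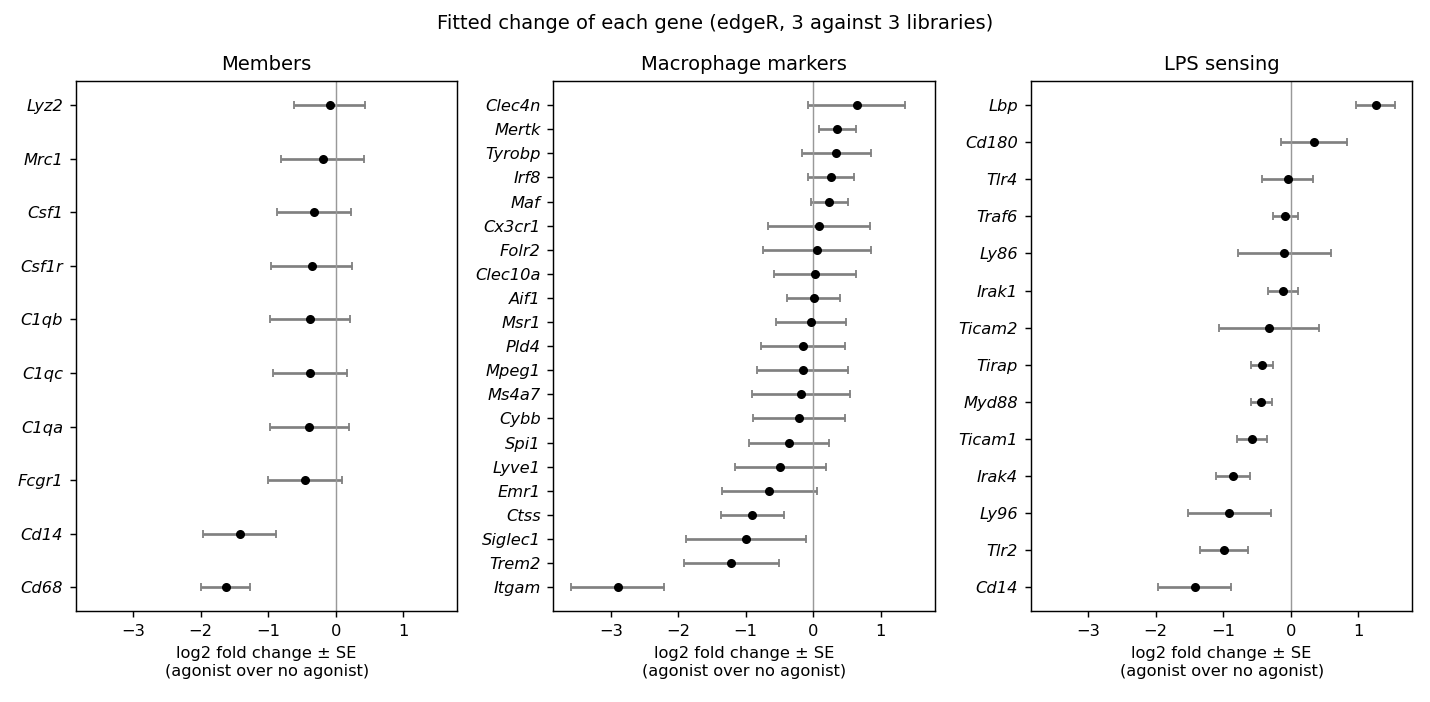
Fitted log2 fold change (agonist over no agonist) ± SE of the 10 members, of 21 of the 22 tested macrophage markers and of the genes of LPS sensing, each panel sorted by value. Cd68 and Cd14 stand at -1.63 and -1.42 among the members, Itgam at -2.90 among the macrophage markers, and Lbp at 1.26 among the LPS genes.

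Per kilobase of exon, Cd14 had the highest mean level of the 10 genes and Mrc1 the lowest mean level. In the agonist group the levels were 252 ± 122 CPM per kilobase for Cd14, 130.5 ± 44.6 for Lyz2, 52.3 ± 14.6 for C1qb, 52.2 ± 10.6 for C1qa, 19.7 ± 4.28 for C1qc and 15.6 ± 4.96 for Cd68 (SD, n = 3). Those of Csf1r, Csf1, Fcgr1 and Mrc1 were 4.40 ± 0.608, 3.32 ± 1.88, 3.15 ± 1.04 and 1.47 ± 0.746. C1qa and C1qb, C1qc and Cd68, and Csf1r, Csf1 and Fcgr1 did not differ beyond their spread. The lengths joined all annotated exons of a gene, and the comparison of C1qc with Cd68 depends on that choice. For C1qc this gave 1931 bases against 1203 in its longest coding transcript, and for Cd68 1257 against 1230. Mrc1 also overlapped Csf1 and Fcgr1 within the SD, and Cd14 overlapped Lyz2. Without the agonist the level per kilobase was 675 ± 417 for Cd14, 138.5 ± 82.9 for Lyz2, 68.4 ± 57.4 for C1qa, 67.8 ± 51.5 for C1qb, 48.3 ± 18.4 for Cd68 and 25.6 ± 18.8 for C1qc. Cd68 thus stood below C1qc in the agonist group and above it without the agonist, although both pairs of values overlapped within their SD.

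A wider list held 26 macrophage markers. Of its 22 tested genes 9 lay above 0 and 13 below, with a median log2 fold change of -0.15. No-agonist library 2 was the lowest for 19 of the 22. The F4/80 antigen gene (listed as Emr1, now Adgre1) measured 8.34, 9.37 and 8.00 CPM in the agonist libraries, against 20.0, 1.91 and 18.4 CPM without the agonist. The lineage factor Spi1, which encodes PU.1, measured 5.30, 5.64 and 2.62 CPM with the agonist, against 10.1, 2.17 and 5.05 CPM without it. The perforin-like Mpeg1 measured 26.1, 47.7 and 21.2 CPM with the agonist, against 66.6, 7.74 and 31.3 CPM without it. For Emr1, Spi1 and Mpeg1, all with fitted changes below 0, the agonist libraries lay between the extremes of the other group. This did not hold for every marker. Mertk, with a log2 fold change of 0.36 ± 0.27 (SE), measured 24.4, 17.5 and 29.7 CPM with the agonist, against 22.1, 15.2 and 18.4 CPM without it.

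The 1 macrophage marker with separate groups was Itgam, the integrin chain CD11b. It measured 97.4, 25.1 and 15 CPM with the agonist, against 347, 223.5 and 455 CPM without it (log2 fold change -2.90 ± 0.70 SE, adjusted p = 0.304 with edgeR and 0.000369 with DESeq2). Its partner chain Itgb2 measured 15.7, 14.6 and 13.8 CPM with the agonist, against 25.2, 6.35 and 12.0 CPM without it. Per kilobase of exon, Itgam averaged 9.13 CPM with the agonist and 68.1 CPM without it, and Itgb2 averaged 4.82 CPM with the agonist and 4.76 CPM without it. Leaving out Itgam, a choice made after its values were seen, the summed level of the 21 other tested macrophage markers was 304.5, 332 and 261 CPM with the agonist, against 542, 169 and 409 CPM without it. The sum including Itgam ranged from 276 to 402 CPM with the agonist and from 393 to 890 CPM without it. Genes shared by all leukocytes had 7 of 10 tested members above 0, among them the actin-bundling Lcp1 and the membrane proteins Cd52 and Laptm5 with separate groups, which 6.94% of all genes had in that direction. The general leukocyte gene Ptprc (CD45) measured 10.4, 12.4 and 12.3 CPM with the agonist, against 12.2, 4.79 and 10.5 CPM without it.

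**Figure D4:**
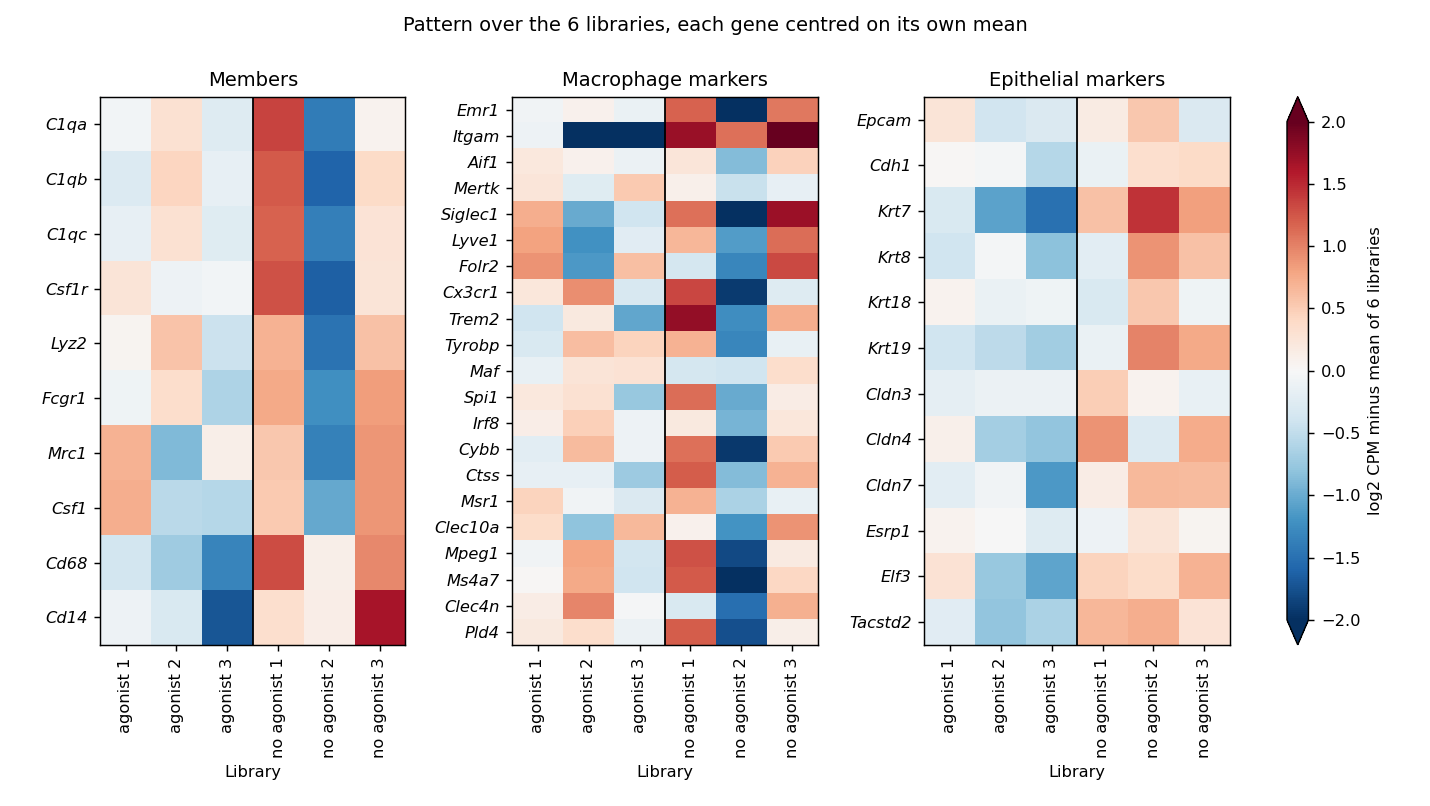
Log2 CPM (prior count 2) of the members, 21 of the 22 tested macrophage markers and the epithelial markers in each of the 6 libraries, agonist at left of the line, with each gene centred on its own mean (red higher, blue lower). No-agonist library 2 is the lowest library for 8 of the 10 members and for 19 of the macrophage markers, but not for Cd68, Cd14 or any of the 12 epithelial markers.

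Likeness of patterns was measured as the root mean square difference of centred log2 CPM over the 6 libraries, among 12874 genes with at least 5 CPM on average. The 5 genes nearest to the C1q mean were Pld4, Fcgr3, Mpeg1, C3ar1 and Sla, at 0.20 to 0.25. Pld4, Mpeg1 and the complement receptor gene C3ar1 are expressed by macrophages and related cells. Of the members, Csf1r, Lyz2 and Fcgr1 ranked 8, 13 and 23 by likeness to C1q. The 5 genes nearest to Cd68 were Bcar3, Tmprss6, Smoc1, Rhpn2 and Kcnk6, at 0.28 to 0.29. None of these 5 is a macrophage marker of the lists. Cd14 ranked 189 by likeness to Cd68, and Csf1, the next member, 1788. Nearest to Csf1 were Scrn1, Ecm1, Phf11b, H2-DMa and Hspb2, at 0.13 to 0.20, and Mrc1 ranked 70. Each of these patterns rests on 6 libraries, and the genes share the same libraries and scaling.

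Among macrophage markers of at least 5 CPM, 17 of 19 were nearer to the C1q mean than to Cd68. Itgam was nearer to Cd68. Nearer to C1q were also 8 of 8 pan-leukocyte genes and 6 of 6 dendritic cell markers, but likewise 9 of 9 endothelial markers, 11 of 13 stroma markers and 5 of 5 red blood cell genes. Of the 12 epithelial markers 11 were nearer to Cd68, as were 9 of 9 smooth muscle markers. Over all genes 71.1% were nearer to C1q and 28.9% to Cd68.

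Epithelial markers lay lower in the agonist group, as did Cd68 and Cd14. All 12 had fitted changes below 0, 7 of them at an unadjusted p under 0.05 and 5 with separate groups, where the shares over all genes were 5.09% and 7.61%. Their sum ranged from 4843 to 7319 CPM in the agonist libraries and from 8769 to 13900 CPM without the agonist, so the groups did not overlap. Within the group without the agonist the sum of the markers did not move together with these genes. No-agonist library 2 had the highest epithelial sum (13900 CPM) but the lowest Cd68 and Cd14 of that group (35.9 and 702 CPM). Single markers differed in this. Cldn4 measured 123, 54.9 and 110.5 CPM in no-agonist libraries 1 to 3, and Elf3 measured 1456, 1383 and 1720 CPM. Of the 12 markers only these were lowest in library 2 within that group. The epithelial transcription factor Elf3 and the tight junction gene Cldn4 ranked 82 and 23 by likeness to Cd68. The keratin Krt7 measured 836, 491 and 366 CPM with the agonist, against 1543, 2798 and 1816 CPM without it (adjusted p = 0.260 with edgeR and 0.000369 with DESeq2). All 9 smooth muscle markers were below 0 too, with 0 at an unadjusted p under 0.05 and overlapping sums. The part of the epithelial or smooth muscle share in the lower Cd68 and Cd14 was not tested.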

How the data were processed

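The authors deposited raw read counts per gene symbol for the 6 libraries, all in 1 table. The submitters' processing notes name HTSeq 0.6.1 and the mouse build mm10, also listed as GRCm38. The aligner, annotation, filters and strand setting were not given in the sources used here. Library making used, per the labels' protocols, an Ion Total RNA-Seq Kit, followed by an Ion Proton instrument with single-end reads.

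Counts were filtered with filterByExpr, scaled by TMM factors and tested with edgeR's quasi-likelihood F-test (R 4.3.3, edgeR 4.0.16), agonist against no agonist with 3 libraries each. A gene was called at an adjusted p (Benjamini-Hochberg, all 16581 tested genes) below 0.05. Standard errors were the fitted log2 fold change divided by the square root of F. DESeq2 1.42.0 and limma 3.58.1 (voom) were alternatives, and the main test was checked on simulated data. Log2 CPM for patterns used a prior count of 2. Coordinates and exon lengths came from GENCODE M21 (GRCm38), which held all 10 members. Adgre1 was found under its older symbol Emr1, and C1s2 under Gm5077.

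The 10 members, the 21 gene lists and the tests were chosen with earlier results of these data known. The rule for named genes took all members, up to 4 other genes of each list with the smallest p, the 5 genes most like Cd68, Csf1 or the C1q mean, and neighbours or paralogs that can share reads. Genes named beyond this rule, such as Emr1, Spi1, Mpeg1, Itgb2, Tlr4 and Ccr2, were chosen for their role after their values were seen. 1 macrophage marker counted in the lists is not reported here by name.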

Additional observations from a re-analysis of the deposited data

How the results depend on the processing

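Cd68, Cd14 and Fcgr1 kept their direction under all 15 alternatives of scaling, filter, test and left-out library. The count of called genes depended on the test, with 0 higher and 0 lower by edgeR's quasi-likelihood test against 166 and 254 with DESeq2, 104 and 164 with edgeR's likelihood ratio test, and 8 and 28 with no filter on low counts. DESeq2 and the likelihood ratio test each called 1 member lower, Cd68 (adjusted p = 0.00482 and 0.00764), and limma-voom called 0. Leaving out each library gave 0 to 1 genes lower, the 1 without no-agonist library 2.

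The other members changed sign in some fits, and the cause was not tested. With library totals alone, which moved the median of all genes to 0.18, the log2 fold change of Lyz2 was 0.054. With limma-voom that of Lyz2 was 0.13 and that of Csf1r 0.033. Over the fits that left out 1 library, log2 fold changes ranged from -0.88 to 0.071 for Csf1, -0.81 to 0.44 for Csf1r, -0.62 to 0.23 for Mrc1, -0.82 to 0.50 for C1qa, -0.83 to 0.32 for C1qb, -0.80 to 0.32 for C1qc and -0.51 to 0.23 for Lyz2. The log2 ratio of Cd14 to Cd68 ranged from -0.25 to 0.58, that of C1q to Cd68 from 1.18 to 1.95 and that of Lyz2 to Cd68 from 1.37 to 1.98. A prior count of 5 kept 5, 5 and 4 of the 5 genes named for Cd68, Csf1 and C1q. No paired analysis was possible because the libraries of the 2 groups share no numbers in the labels.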

Other observations

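Values differed between the lists of other leukocytes and of monocyte recruitment. Of 15 genes of monocyte recruitment 5 lay above 0 and 10 below, with 0 at an unadjusted p under 0.05. The chemokine Ccl8 measured 12.5, 4.55 and 8.31 CPM in the agonist libraries, against 6.57, 5.74 and 48.0 CPM without the agonist, and Plac8 measured 206, 117 and 116 CPM with the agonist, against 128, 107.5 and 846 CPM without it. In both, no-agonist library 3 alone stood high. The chemokine receptor gene Ccr2, carried by monocytes that enter tissue, measured 10.4, 12.4 and 9.16 CPM with the agonist, against 6.72, 3.83 and 17.9 CPM without it.

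Dendritic cell markers split evenly, with 5 above 0 and 5 below. Cd209a measured 2.73, 4.28 and 5.77 CPM with the agonist, against 1.06, 1.74 and 2.20 CPM without it, while the MHC class II chaperone Cd74 measured 618, 267 and 176 CPM with the agonist, against 357, 67.6 and 682.5 CPM without it. As for C1q, no-agonist library 2 was the lowest library, here for 9 of the 10 genes. Neutrophil markers had 5 tested genes, 4 above 0, and S100a9 ranged from 0.0769 to 4.14 CPM with the agonist and from 0 to 5.23 CPM without it. NK and T cell markers had 9 of 10 tested genes above 0 and B and plasma cell markers 3 of 4. Mast cell markers had 2 of 4, endothelial markers 9 of 9 and red blood cell genes 5 of 5, with none of these past edgeR's adjusted threshold. DESeq2 called the plasma cell genes Mzb1 and Igj higher (adjusted p = 0.0214 and 0.0495).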
